A study of Homo sapiens with 4 samples.

Results

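NRF2 is the transcription factor that switches on the cell's antioxidant and detoxifying genes, and the 10 genes described here are NFE2L2, which encodes it, its regulators KEAP1, BACH1, MAFG and MAFF, and the targets NQO1, OSGIN1, ABCC2, ABCC3 and PIR. They were taken by symbol from a table of 19739 coding genes, where all 10 were found and each has a single row. The study sequenced RNA of the human liver cancer lines HepG2 and Huh7. It had 4 groups of 1 library each: HepG2 cells given low-frequency ultrasound and RSL3@O2-ICG NBS for 24 h, HepG2 cells with no treatment, Huh7 cells given the same 24 h treatment, and Huh7 cells with no treatment. RSL3 inhibits GPX4, the enzyme that removes lipid hydroperoxides, and is used to start ferroptosis, a cell death driven by lipid peroxidation. The labels do not spell out NBS, and no library analysed here had RSL3, the carrier or the ultrasound alone.

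In unstressed cells KEAP1 holds NRF2 in the cytoplasm and presents it to a ubiquitin ligase for degradation. Electrophiles and oxidants modify KEAP1, NRF2 then gathers in the nucleus, pairs with a small MAF protein and binds antioxidant response elements. BACH1 binds the same elements with the same small MAF partners and represses the genes there until haem removes it. Much of this control acts on protein, which transcript levels do not show. In liver the programme is known for quinone and aldehyde detoxification and for export of conjugates.

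Values are FPKM, the fragments per kilobase of transcript and per 1000000 fragments, so levels of different genes can be set side by side. Ratios are log2((treated FPKM + 1)/(untreated FPKM + 1)), a scale that understates the change of genes with low values, and a gene is counted as higher or lower when it passed 2-fold. Inferred depth was 22900000 to 26500000 fragments, and between 11156 and 11715 coding genes had 1 FPKM or more. With 1 library per group nothing can be tested within a line, and the counting intervals given below (exact, 95%, for 1 kb of transcript at the inferred depth) leave out the variation between cultures. Fewer cells of a type and less RNA per cell cannot be told apart in such data. The libraries labelled HepG2 do not carry the markers of that line: 0 of 13 hepatocyte markers, albumin and alpha-fetoprotein among them, reached 1 FPKM in either, with summed levels of 0.435 FPKM treated and 0.528 FPKM untreated. All 13 did in both Huh7 libraries, which summed to 2138.3 FPKM treated and 2350.9 FPKM untreated. They are therefore called the libraries labelled HepG2.

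In the treated library labelled HepG2, 2 of the 10 genes were at least 2-fold higher than in its untreated partner, MAFF and ABCC3, and 0 of 10 at least 2-fold lower. Over all 11843 genes considered in that line, 6.7% passed 2-fold upwards and 2.43% downwards (9.14% either way). Treated Huh7 also had 2 of 10 at least 2-fold higher, OSGIN1 and ABCC3, and 0 of 10 lower, where 3.88% and 2.19% of 11945 genes passed in those directions (6.07% either way). ABCC3 was the gene that passed in both. Ratios were above 0 for 7 of 10 genes in the libraries labelled HepG2 and 8 of 10 in Huh7, against 56.9% and 58.8% of all genes. The median log2 ratio of the 10 was 0.31 in the libraries labelled HepG2 and 0.47 in Huh7, beside 0.09 and 0.10 over all genes. These shares and medians rest on 10 genes and are a description.

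**Figure D1:**
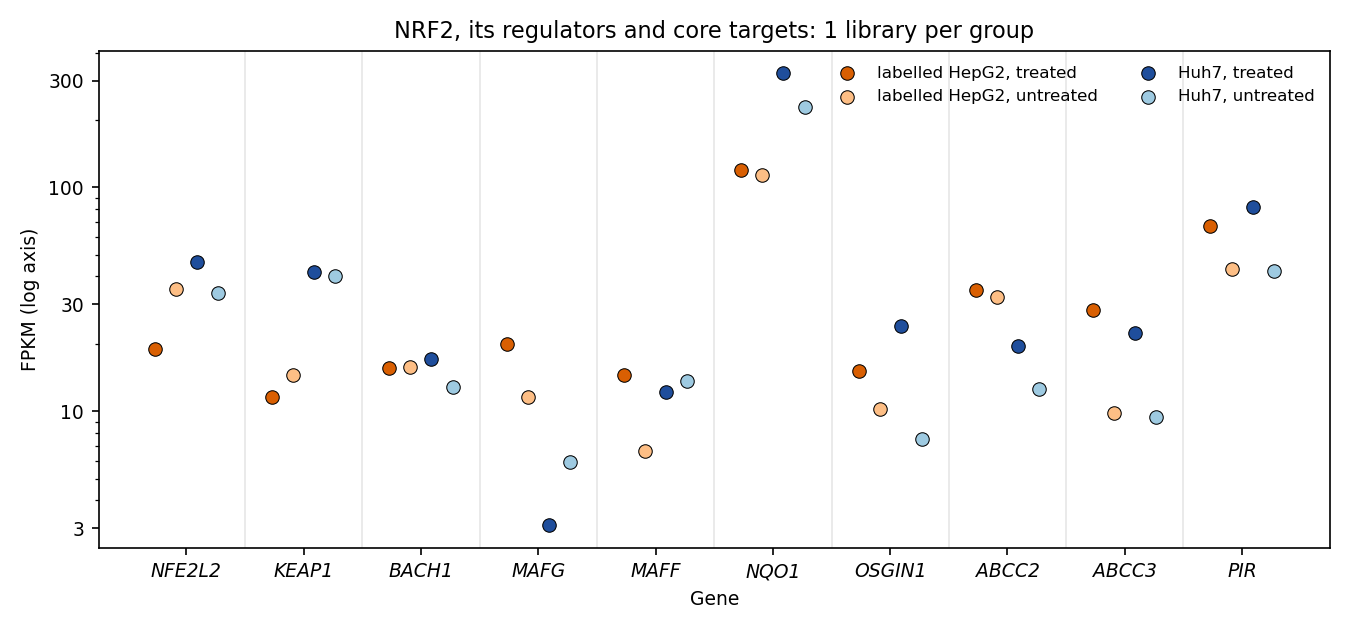
Each point is the FPKM (log axis) of 1 gene in 1 library, with the treated library left of the untreated library of the same line and no error bars because each group holds 1 library. NQO1 and PIR lead in all 4 libraries, and MAFG spans the widest range of the regulators, from 3.1 FPKM in treated Huh7 to 20.0 FPKM in treated cells labelled HepG2.

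NFE2L2 itself was lower in treated than in untreated cells labelled HepG2 and higher in treated than in untreated Huh7. Its gene (ENSG00000116044, minus strand, chromosome 2, 177227595 to 177392697) had 19.0 FPKM in treated and 35 FPKM in untreated cells labelled HepG2. In Huh7 it had 46.3 FPKM treated and 33.6 FPKM untreated. The untreated libraries were thus close to each other and the treated ones lay on either side of them. Log2 ratios were −0.85 and 0.45, which rank at the 3.85 and 76.8 percentiles of all genes of their line. As a ratio of FPKM the treated value was 0.544 of the untreated in the libraries labelled HepG2 (interval 0.484 to 0.61) and 1.38 of it in Huh7 (1.26 to 1.51). Neither passed 2-fold. Of its exonic bases 20.9% are shared with other annotated genes, mostly with AC019080.1 on the same strand (17.6%). The sources used here do not state whether strand was kept. The ether lipid enzyme gene AGPS, which shares 0.9% of those bases on the opposite strand, had 7.49 FPKM in treated and 18.3 FPKM in untreated cells labelled HepG2, and 14.9 and 13.3 FPKM in treated and untreated Huh7. Its part in the NFE2L2 values was not tested.

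KEAP1, the inhibitor, differed more between the lines than with treatment. It (ENSG00000079999, minus strand, chromosome 19, 10486125 to 10503558) had 11.6 FPKM in treated and 14.5 FPKM in untreated cells labelled HepG2. Huh7 cells had 41.8 FPKM treated and 40.1 FPKM untreated. The treated value was 0.797 of the untreated in the libraries labelled HepG2 (0.68 to 0.936). In Huh7 it was 1.04 of the untreated (0.956 to 1.14), an interval that holds 1, and the sign of the log2 ratio of 0.06 turned to −0.06 after scaling by size factors. Untreated Huh7 had 2.64-fold the KEAP1 of untreated cells labelled HepG2.

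BACH1, the repressor that competes with NRF2 (ENSG00000156273, plus strand, chromosome 21, 29194071 to 29630751), was the steadiest of the regulators in the libraries labelled HepG2, with 15.6 FPKM treated and 15.8 FPKM untreated. Its log2 ratio there was −0.01, and 0.03 after rescaling each library to the same total. In Huh7 it had 17.1 FPKM treated and 12.8 FPKM untreated, a log2 ratio of 0.39. BACH1-IT2, a noncoding transcript inside the BACH1 locus, had no signal in either library labelled HepG2 (listed at 0) and 2.79 FPKM in treated and 0.843 FPKM in untreated Huh7. BACH1-IT1 had 1.44 FPKM in treated and 0.402 FPKM in untreated Huh7.

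The small MAF genes encode the obligate DNA-binding partners of both NRF2 and BACH1, and lack an activation domain of their own. MAFF (ENSG00000185022, plus strand, chromosome 22, 38200767 to 38216507) had 14.5 FPKM in treated and 6.66 FPKM in untreated cells labelled HepG2. Huh7 had 12.2 FPKM treated and 13.6 FPKM untreated. The log2 ratio of 1.01 in the libraries labelled HepG2 sits just past 2-fold and was 0.96 with size factors, while that of Huh7 was −0.14, with an FPKM ratio whose interval (0.767 to 1.06) holds 1. MAFG (ENSG00000197063, minus strand, chromosome 17, 81918270 to 81927735) had 20.0 FPKM in treated and 11.6 FPKM in untreated cells labelled HepG2. In Huh7 it had 3.1 FPKM treated and 5.94 FPKM untreated. These are log2 ratios of 0.73 and −0.76, on opposite sides of 0 and each short of 2-fold on that scale. In Huh7 the treated FPKM was 0.523 of the untreated (0.39 to 0.697). Of the exonic bases of MAFG 6.3% are shared with other annotated genes, 2.0% with SIRT7 on the same strand. SIRT7 had 16.1 and 19.6 FPKM in treated and untreated cells labelled HepG2, and 9.94 and 10.9 FPKM in treated and untreated Huh7. The part of SIRT7 in the MAFG values was not tested. The remaining small MAF, MAFK, had 34.4 FPKM treated and 14.7 FPKM untreated in the libraries labelled HepG2, and 12.9 and 16.2 FPKM in treated and untreated Huh7. The 3 genes together came to 68.9 FPKM treated and 32.9 FPKM untreated in the libraries labelled HepG2. They came to 28.3 FPKM treated and 35.8 FPKM untreated in Huh7. All 3 were thus higher in treated cells labelled HepG2 and lower in treated Huh7, and the difference between the lines was not tested.

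**Figure D2:**
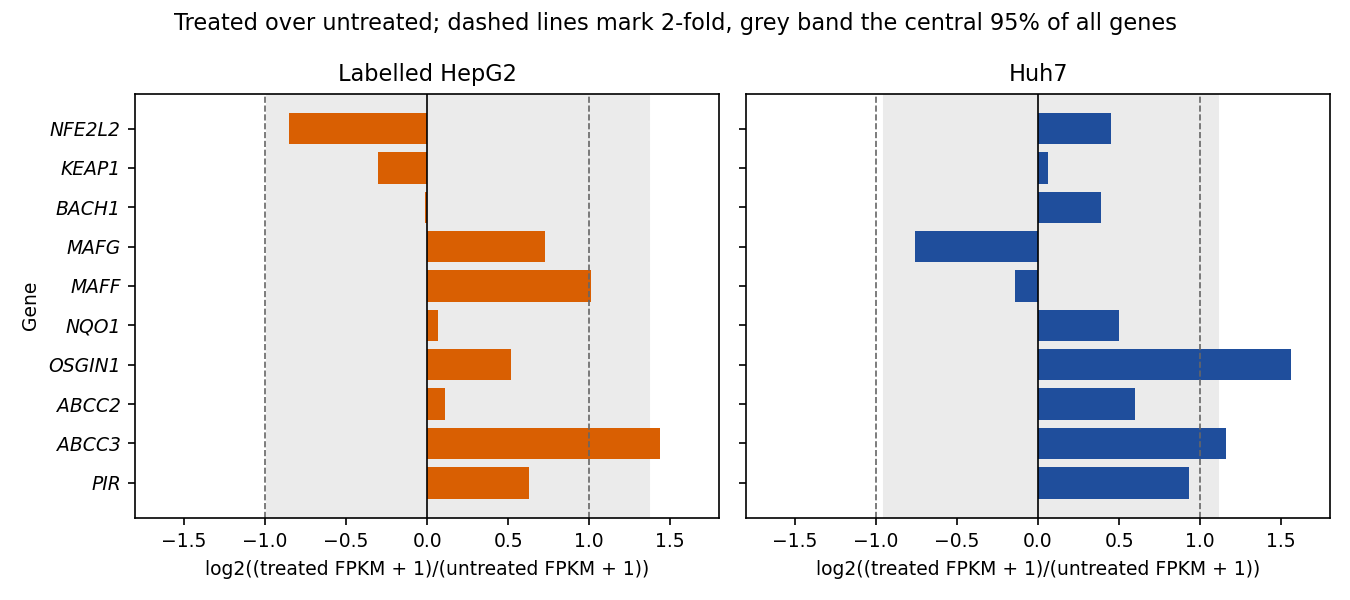
Bars give the log2 ratio of treated over untreated FPKM + 1 for the 10 genes in the libraries labelled HepG2 (left) and Huh7 (right), 1 library per group; the grey band holds the central 95% of all genes (−0.99 to 1.37 and −0.95 to 1.11). ABCC3 passes 1 in both panels, while NFE2L2, MAFG and MAFF point in opposite directions. KEAP1 (−0.30 left, 0.06 right) and BACH1 (−0.01 left, 0.39 right) also differ in sign, each with a ratio near 0.

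Among the targets, ABCC3 was higher after treatment in both lines. It encodes MRP3, a basolateral pump that exports glucuronide and other conjugates from liver cells towards blood. ABCC3 (ENSG00000108846, plus strand, chromosome 17, 50634777 to 50692253) had 28.3 FPKM in treated and 9.78 FPKM in untreated cells labelled HepG2. It had 22.3 FPKM in treated and 9.41 FPKM in untreated Huh7. Both treated libraries lay above both untreated ones, and the untreated pair was nearly level. These are 2.72-fold and 2.24-fold on the FPKM + 1 scale, at the 97.9 and 98.0 percentiles of all genes, and FPKM ratios of 2.89 (2.5 to 3.37) and 2.37 (2.04 to 2.77). Its exonic bases shared with another annotated gene came to 0.0%.

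ABCC2 encodes MRP2, the related pump of the bile canaliculus. It (ENSG00000023839, plus strand, chromosome 10, 99782640 to 99852594) had 34.9 FPKM in treated and 32.3 FPKM in untreated cells labelled HepG2, a ratio of 1.08 (0.979 to 1.19). Huh7 had 19.6 FPKM treated and 12.6 FPKM untreated, a ratio of 1.56 (1.35 to 1.8). Before treatment ABCC2 was lower in Huh7 than in the libraries labelled HepG2, by 1.3 on the log2 scale. The liver factors HNF4A and NR5A2 had the reverse order. HNF4A stood at 8.95 FPKM in treated and 12.3 FPKM in untreated Huh7, and at 0.166 and 0.449 FPKM in treated and untreated cells labelled HepG2. The level of ABCC2 relative to ABCC3 was 1.23 treated and 3.31 untreated in the libraries labelled HepG2, and 0.88 treated and 1.33 untreated in Huh7.

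OSGIN1, a growth inhibitor induced by oxidative stress, had the highest ratio of the 10 genes in Huh7. It (ENSG00000140961, plus strand, chromosome 16, 83948282 to 83966332) had 24.1 FPKM in treated and 7.55 FPKM in untreated Huh7, 2.94-fold on the FPKM + 1 scale and at the 99.5 percentile. In cells labelled HepG2 it had 15.1 FPKM treated and 10.2 FPKM untreated, 1.44-fold. Of its exonic bases 13.9% are shared with AC009119.2 on the same strand, a gene at 0.76 FPKM or less in every library. The stretch before a start site within the listed span is shown because OSGIN1 led in Huh7 and the stretch carries an AP-1 site. The letters of such a site overlap those of many NRF2 elements. The stretch held no match to TGACNNNGC, the core of the antioxidant response element. The sequence (RefSeq, GRCh38.p14, plus strand, chr16:83952990-83953209) has the 7 bases that match TGANTCA in capitals, the first of them 97 bases before the start site:
OSGIN1: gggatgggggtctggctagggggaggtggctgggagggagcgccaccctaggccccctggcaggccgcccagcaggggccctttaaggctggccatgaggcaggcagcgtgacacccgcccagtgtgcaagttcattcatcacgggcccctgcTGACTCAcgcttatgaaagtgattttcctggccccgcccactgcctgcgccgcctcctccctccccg

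PIR encodes pirin, an iron-binding nuclear protein. It (ENSG00000087842, minus strand, chromosome X, 15384799 to 15493564) had 67.5 FPKM in treated and 43.3 FPKM in untreated cells labelled HepG2. Huh7 had 81.6 FPKM treated and 42.4 FPKM untreated. Both treated libraries again lay above both untreated ones, at 1.54-fold and 1.90-fold on the FPKM + 1 scale, short of 2-fold. A pair of assembled transcripts listed under the name BMX span the PIR locus. The more abundant in treated Huh7 had 2.0 FPKM treated and 1.29 FPKM untreated in the libraries labelled HepG2, and 2.51 and 0.731 FPKM in treated and untreated Huh7. Their exons and strand are not in the table, so reads of PIR and of these transcripts cannot be told apart.

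The promoter table gave 14 windows of 300 bases (250 before the start site and 50 after it) for 9 of the 10 genes. ABCC3 is the other. TGACNNNGC, the core of the antioxidant response element, was searched on both strands and matched in 3 of the 14 windows, those of PIR, KEAP1 and MAFF. It matches in 13.3% of all 35116 windows. TGANTCA, the AP-1 site, can overlap it and matched in 3 windows, those of OSGIN1, PIR and BACH1, beside 7.71% of all windows. PIR is the gene where both patterns fall on the same bases, as TGACTCAGC on the strand opposite to the gene, which 0.561% of all windows hold on either strand. The matches to TGACNNNGC are shown with 30 bases each (RefSeq, GRCh38.p14, on the strand of the gene), the matched bases in capitals; those of PIR, MAFF and the second of KEAP1 read as the pattern on the other strand:
PIR, chrX:15493289-15493318: ggccgcgaagcGCTGAGTCAcggtgaggct
MAFF, chr22:38201861-38201890: gcttccaggggGCGGGGTCAtacgggggcg
KEAP1, chr19:10502807-10502836: gacttttattgTGACACGGCgggcgcccgg
KEAP1, chr19:10502784-10502813: cgcccggctctGCTTAGTCAtggtgacctg
A match is a description of letters. NQO1, NFE2L2, MAFG and ABCC2 had none of either pattern in these windows.

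NQO1, the quinone reductase most often read as the marker of NRF2 activity, was the most abundant of the 10 in every library. It (ENSG00000181019, minus strand, chromosome 16, 69706996 to 69726668) had 119 FPKM in treated and 113 FPKM in untreated cells labelled HepG2, an FPKM ratio of 1.05 whose interval (0.996 to 1.11) holds 1. In Huh7 it had 323 FPKM treated and 228 FPKM untreated, a ratio of 1.42 (1.37 to 1.47). That Huh7 ratio is well outside counting error and lies at the 79.7 percentile of all genes of that line. The antisense transcript AC092115.2 shares 17.7% of the exonic bases of NQO1. It had 1.36 FPKM in treated and 1.10 FPKM in untreated cells labelled HepG2, and 1.76 and 1.16 FPKM in treated and untreated Huh7.

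In the order of levels NQO1 and PIR came first and second in all 4 libraries. KEAP1 was the lowest of the 10 in treated cells labelled HepG2, MAFF in their untreated partner, and MAFG in both Huh7 libraries. Of the 9 pairs of neighbours in that order, 5 had overlapping counting intervals in treated and 4 in untreated cells labelled HepG2. In Huh7 4 of 9 overlapped in the treated library, NFE2L2 and KEAP1 among them, and 5 of 9 in the untreated one.

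Before treatment, 2 of the 10 genes were at least 2-fold higher in Huh7 than in the libraries labelled HepG2, KEAP1 and NQO1, and 1 was at least 2-fold lower, ABCC2. These shares sit beside 17.5% and 17.2% of 12446 genes (34.7% either way). NQO1 passed narrowly, at 2.01-fold. NFE2L2, ABCC3 and PIR differed little, with log2 ratios of −0.05, −0.05 and −0.03, all of which turned positive with size factors.

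**Figure D3:**
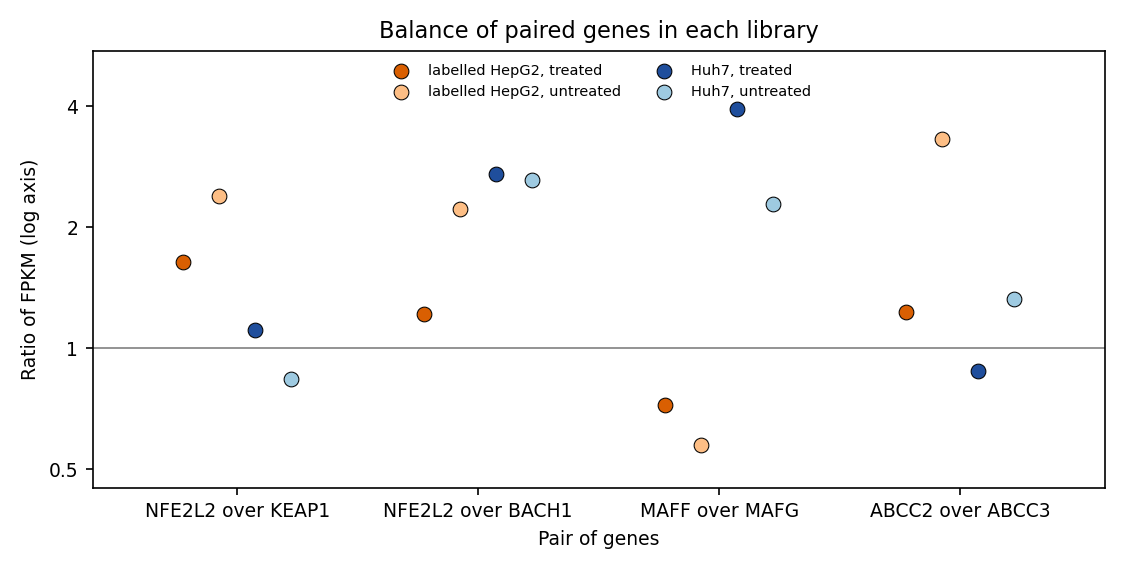
Each point is the ratio of FPKM of a pair of genes in 1 library (log axis), treated left of untreated within each line. The balance of NFE2L2 to KEAP1 is 1.64 in treated and 2.40 in untreated cells labelled HepG2, and 1.11 in treated and 0.839 in untreated Huh7.

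Set against its inhibitors, NFE2L2 transcript was lower in treated cells labelled HepG2 on both counts. The ratio to KEAP1 was 1.64 treated and 2.40 untreated there, and 1.11 treated and 0.839 untreated in Huh7. The ratio to BACH1 was 1.22 treated and 2.22 untreated in the libraries labelled HepG2, and nearly level in Huh7, at 2.71 treated and 2.63 untreated. MAFG exceeded MAFF in both libraries labelled HepG2, with MAFF to MAFG at 0.724 treated and 0.574 untreated. MAFF exceeded MAFG in both Huh7 libraries, at 3.94 treated and 2.29 untreated.

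The only test that spans libraries asked whether treatment moved a gene alike in both lines (limma with a mean-variance trend, cell line as a block, 1 residual degree of freedom, 13030 genes). None of the 10 genes had a Benjamini-Hochberg adjusted p under 0.05, as was so for 0.0% of all genes in either direction. At an unadjusted p under 0.05, 3 of the 10 were higher and 0 lower, beside 7.99% and 3.78% of all genes. Without the cell line as a block 1 of the 10 was higher at that level, ABCC3 (limma p 0.0159, adjusted p 1). Of all 13030 genes 62 were then higher and 50 lower. The 3 found with the block were ABCC3, PIR and OSGIN1, each higher in both lines. ABCC3 had a mean log2 difference of 1.3 (SE 0.24, limma p 0.000793, adjusted p 0.212). PIR had 0.78 (SE 0.21, limma adjusted p 0.28) and OSGIN1 1.04 (SE 0.31, limma adjusted p 0.291). NFE2L2, which differed in sign between the lines, had −0.20 (SE 0.32, limma adjusted p 0.826).

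**Figure D4:**
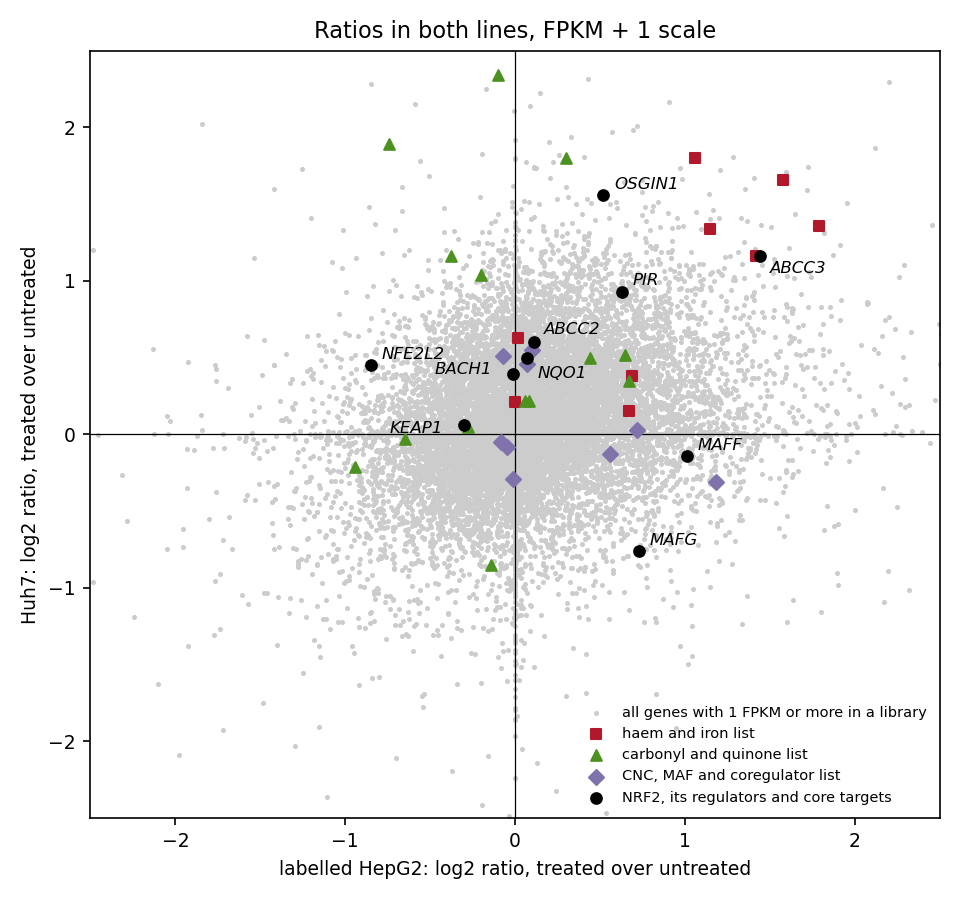
Log2 ratios of treated over untreated FPKM + 1 in the libraries labelled HepG2 (x axis) and in Huh7 (y axis) for 13030 genes in grey, with the 10 genes in black and 3 other lists in colour; 46 genes lie outside the axes. ABCC3 sits among the haem and iron genes at the upper right, and MAFG, MAFF and MAFK (the rightmost purple diamond) lie at lower right.

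Other genes of the pathway differed by group. Over all genes, 6.7% were at least 2-fold higher and 2.43% lower in treated cells labelled HepG2. In treated Huh7 3.88% were higher and 2.19% lower. The all-gene median log2 ratios were 0.09 and 0.10. These values stand beside the counts and medians of every list below. The haem and iron genes, which NRF2 activates and BACH1 represses, had 5 of 8 measured genes at least 2-fold higher in treated cells labelled HepG2 and 5 of 9 in treated Huh7, and none lower. The 5 were HMOX1, FTL, FTH1, BLVRB and SLC48A1 in both lines, and the median log2 ratio was 1.11 and 1.16. SLC48A1, which moves haem out of lysosomes, had 57.2 FPKM treated and 20.8 FPKM untreated in the libraries labelled HepG2, and 9.30 and 3.59 FPKM in treated and untreated Huh7. HMOX1, which opens the haem ring, was 3.46-fold and 2.57-fold higher, and FTL and FTH1, the ferritin chains, were 2.98-fold and 2.09-fold higher in the libraries labelled HepG2. These lists were drawn up with earlier results of these libraries known.

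Thiol and detoxifying targets past 2-fold were found in Huh7 and not in the libraries labelled HepG2, where some of them were nearly absent. The difference between the lines was not tested. Of the glutathione and thioredoxin genes, 0 of 12 in the libraries labelled HepG2 and 3 of 13 in Huh7 were at least 2-fold higher (medians 0.06 and 0.41). The 3 were GCLC, the catalytic subunit of glutathione synthesis, TXNRD1, thioredoxin reductase, and SRXN1, sulfiredoxin. They sat at 2.07-fold, 2.06-fold and 2.06-fold, and with size factors 0 of 13 passed. SRXN1 had 51.2 FPKM in treated and 51.0 FPKM in untreated cells labelled HepG2, and 94.1 and 45.1 FPKM in treated and untreated Huh7. SLC7A11, the cystine importer, had 14.4 and 13.3 FPKM in treated and untreated cells labelled HepG2 and 5.36 and 2.29 FPKM in treated and untreated Huh7.

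Of the carbonyl, quinone and conjugation genes 0 of 11 in the libraries labelled HepG2 and 5 of 12 in Huh7 were at least 2-fold higher (medians −0.14 and 0.51), and none was lower in either (with size factors, 1 in the libraries labelled HepG2). The higher genes were AKR1B10, AKR1C1, AKR1C2, UGT1A6 and TRIM16L. AKR1B10, AKR1C1 and UGT1A6 were under 1 FPKM in both libraries labelled HepG2. They are therefore not among the 11 and could not pass there. UGT1A6 passed in Huh7 on 1.94 FPKM treated and 0.429 FPKM untreated. At a minimum of 5 FPKM 4 genes were higher in Huh7, and with size factors also 4. AKR1C1 and AKR1C2 are near-identical, so reads may be split between them. TRIM16L had 32.3 FPKM in treated and 42.3 FPKM in untreated cells labelled HepG2, and 6.70 and 2.46 FPKM in treated and untreated Huh7. Of 6 genes that make NADPH, the cofactor these reductases use, IDH1 alone passed in the libraries labelled HepG2, at 66.7 FPKM treated and 32.4 FPKM untreated. With size factors IDH1 no longer passed. ME1, malic enzyme, was at 85.3 and 42.6 FPKM in treated and untreated Huh7, and PGD, an enzyme of the pentose phosphate path, at 101 and 69.3 FPKM.

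Genes of NRF2 turnover went both ways, short of 2-fold. Of the ligase subunits and binding partners of KEAP1 and NRF2, 0 of 14 in the libraries labelled HepG2 and 0 of 13 in Huh7 passed 2-fold either way, with medians of −0.02 and −0.00. Over all genes 9.14% and 6.07% passed either way, so counts of 0 in a list this short are near those shares. SQSTM1, the autophagy receptor p62 that sequesters KEAP1 and is itself an NRF2 target, came closest among the higher ones. It had 996 FPKM treated and 552 FPKM untreated in the libraries labelled HepG2, and 1570.6 and 788 FPKM in treated and untreated Huh7. RBX1, the RING subunit of the KEAP1 ligase, had 13.1 and 21.4 FPKM in treated and untreated cells labelled HepG2, and 19.3 and 36.6 FPKM in treated and untreated Huh7. With size factors 1 gene of the list was at least 2-fold lower in Huh7. CUL1, the scaffold of the ligase that acts on NRF2 through beta-TrCP, had 19.7 and 31.0 FPKM in treated and untreated cells labelled HepG2, and 17.5 and 21.8 FPKM in treated and untreated Huh7. CUL3, the scaffold of the KEAP1 ligase, had 13.1 and 14.5 FPKM in treated and untreated cells labelled HepG2, and 14.7 and 12.1 FPKM in treated and untreated Huh7.

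Of the other cap'n'collar factors, small MAF and coregulators, MAFK alone of 8 measured genes passed in the libraries labelled HepG2, at 2.26-fold higher, and 0 of 8 in Huh7 (medians 0.09 and −0.06). With a pseudocount of 0.1, 2 of 8 passed in the libraries labelled HepG2. NFE2L1, which encodes the related factor NRF1, had 27.8 and 26.4 FPKM in treated and untreated cells labelled HepG2, and 25.5 and 18.2 FPKM in treated and untreated Huh7. NFE2L3, for NRF3, had 1.81 and 0.903 FPKM in treated and untreated cells labelled HepG2, and 9.29 and 10.3 FPKM in treated and untreated Huh7. Among 7 measured ABC pumps beside ABCC2 and ABCC3, none passed in the libraries labelled HepG2 (1 with a pseudocount of 0.1) and ABCG2 alone in Huh7 (medians 0.31 and 0.30). ABCG2, a broad efflux pump, had 4.58 FPKM treated and 1.71 FPKM untreated there, and none passed at a minimum of 5 FPKM or with size factors. ABCC4, another conjugate pump, had 12.3 and 12.0 FPKM in treated and untreated cells labelled HepG2, and 12.3 and 7.61 FPKM in treated and untreated Huh7. Of the 7 liver transcription factors and nuclear receptors, 1 was measured in the libraries labelled HepG2, PPARA, at 4.85 and 2.92 FPKM in treated and untreated cells. In Huh7 0 of 5 passed, with a median of −0.36.

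**Figure D5:**
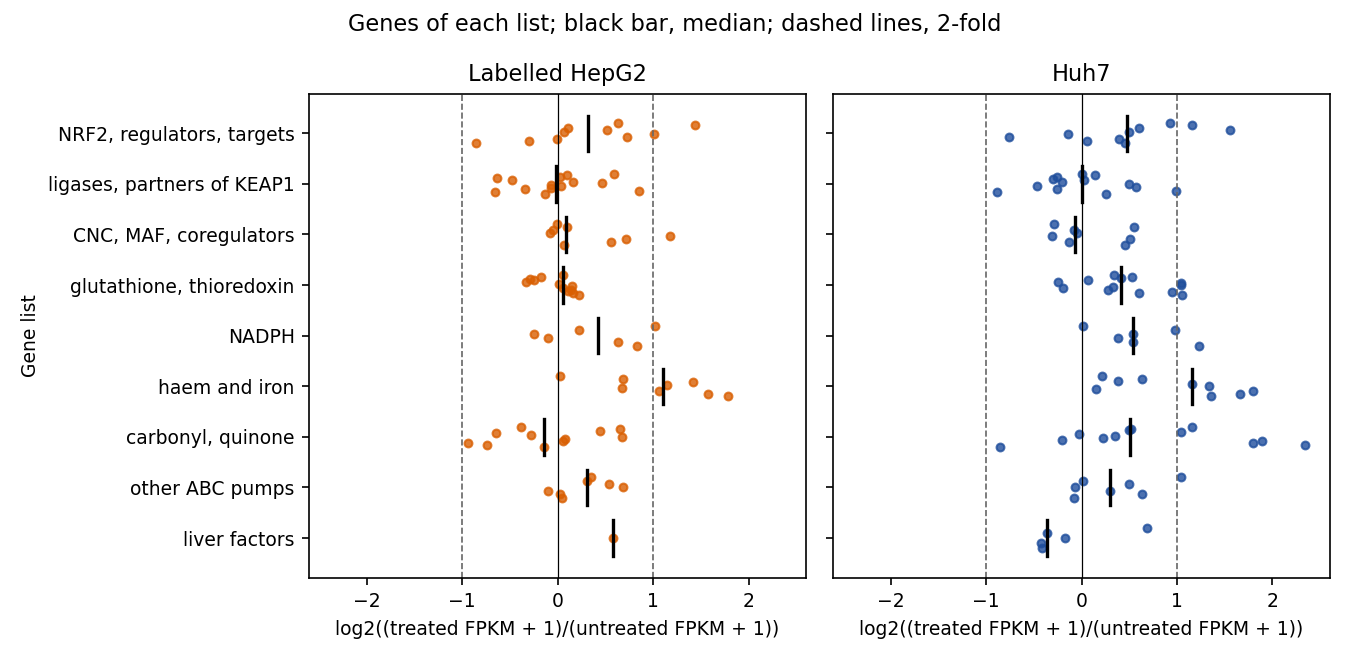
Points are the log2 ratios of treated over untreated FPKM + 1 of the measured genes of each list, in the libraries labelled HepG2 (left) and Huh7 (right), with the median as a black bar. The haem and iron list has its median past 1 in both panels (1.11 and 1.16), and the carbonyl and quinone list is at −0.14 on the left and 0.51 on the right.

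The summed level of markers of other cell types turned on CD68, a macrophage marker that other cells also carry. All 10 markers of fibroblasts, endothelium and blood cells summed to 25.1 FPKM treated and 9.13 FPKM untreated in the libraries labelled HepG2, and to 3.7 and 2.43 FPKM in treated and untreated Huh7. PTPRC, which defines blood cells, was listed at 0 in all 4, and CDH5 of endothelium was at 0.0281 FPKM or less. CD68 had 20.7 FPKM in treated and 1.38 FPKM in untreated cells labelled HepG2, and 2.83 and 0.521 FPKM in treated and untreated Huh7. Without it, a sum taken after the values were seen, the other 9 came to 4.35 FPKM treated and 7.75 FPKM untreated in the libraries labelled HepG2, and to 0.863 and 1.91 FPKM in treated and untreated Huh7, the opposite direction. PDGFRB of fibroblasts had 1.67 and 5.67 FPKM in treated and untreated cells labelled HepG2, DCN 0.269 and 1.48 FPKM, and COL1A1 2.32 and 0.423 FPKM. The part of these cells in the values of the 10 genes was not tested.

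The genes whose profile over the 4 libraries lay nearest to that of NFE2L2 (Euclidean distance of centred log2(FPKM + 1), 10033 genes searched) were TXN2, CLK4 and LTBP1, at 0.102, 0.115 and 0.136. TXN2, mitochondrial thioredoxin, had 17.4 and 35 FPKM in treated and untreated cells labelled HepG2, and 42.4 and 31.9 FPKM in treated and untreated Huh7. Those nearest to NQO1 were TMEM199, SCRN3 and ZNF460, at 0.029, 0.042 and 0.068. A profile of 4 values is short, and such neighbours are a description.

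In the authors' deposited table of Gene Ontology terms for the treated against untreated libraries labelled HepG2, 2 of the 10 genes appear, NFE2L2 and ABCC3. That table lists 3213 genes of a background of 22135. In that for Huh7, 3 of the 10 appear, MAFG, OSGIN1 and ABCC3, where 2438 genes of 22135 are listed. With 10 genes these counts are a description and do not set the 10 apart from the background. The sources used here do not say how the authors chose these genes. The authors' deposited table of KEGG pathways lists ABCC3 among ABC transporters in both lines, with 15 of 44 genes of that pathway in the libraries labelled HepG2 (corrected p 0.587 in the authors' deposited table) and 9 of 44 in Huh7 (corrected p 0.946). The broad term response to chemical stimulus, with NFE2L2 among its 773 listed genes, has a corrected p of 0.000239 in the authors' deposited table for the libraries labelled HepG2. In that for Huh7 it has 590 listed genes, none of the 10 among them, and a corrected p of 0.00241 in the authors' deposited table. The term response to oxidative stress has 71 of 441 genes, NFE2L2 among them, and a corrected p of 0.799 in the authors' deposited table for the libraries labelled HepG2. For xenobiotic metabolic process the authors' deposited table has 25 of 112 genes and a corrected p of 0.0301 in Huh7, with none of the 10 among them, and a corrected p of 1.0 in the libraries labelled HepG2.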

How the data were processed

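The authors deposited FPKM per coding gene and per long noncoding transcript, 1 column per library, per the file headers, and p-values per Gene Ontology term and KEGG pathway, per the file headers. Per the submitters' processing notes, which give no roles, the tools were Cuffdiff 2.1.1, GATK, SAMtools 0.1.18, HISAT2, Picard 1.96, StringTie 1.3.1 and Bowtie2 2.2.8. The genome build was not given in these sources. Of 19739 coding genes 19664 have a GENCODE 29 identifier and 99.837% of these overlap its GRCh38 position. Depth was inferred from the commonest small step of FPKM times length in 2595 genes with 1 transcript. Ratios used a pseudocount of 1 and genes with 1 FPKM or more in either library. Counting intervals are Poisson for levels and Clopper-Pearson for ratios, cover counting error only, and rest on inferred fragments. limma 3.58.1 (R 4.3.3) used genes with 1 FPKM or more in any library; the lines pair the libraries, from the labels. The fit was run on simulated data with less noise than the SEs of the 10 genes and with changes alike in both lines. That setting is easier than these data, so it does not show how the fit performs on them. Pseudocount, filters, scaling and the block were varied. Members and lists were chosen with earlier results of these data known. Genes named: all 10, among the up to 4 per list with the largest absolute ratio in either line, and the 3 nearest profiles of NFE2L2 and NQO1. 1 gene this rule names is not reported here. Others were named after their values were seen: BLVRB, UGT1A6, CUL3, NFE2L1, AGPS, AC009119.2, PTPRC, CDH5 and the noncoding transcripts.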

Additional observations from a re-analysis of the deposited data

Results flagged for a closer look

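The genes below had log2 ratios of treated over untreated on opposite sides of 0 in the lines, at least 1 apart, with 1 library behind each value; none of these differences was tested. MAFG was at −0.76 in Huh7 and 0.73 in the libraries labelled HepG2, a difference of −1.49. MAFK was at −0.31 in Huh7 and 1.18 in the libraries labelled HepG2 (−1.48), and MAFF at −0.14 and 1.01 (−1.15). NFE2L2 was at 0.45 in Huh7 and −0.85 in the libraries labelled HepG2, a difference of 1.29. AKR1C2 was at 1.89 in Huh7 and −0.74 in the libraries labelled HepG2 (2.64), and shares near-identical sequence with AKR1C1. AKR1B10 was at 2.34 in Huh7 and −0.10 in the libraries labelled HepG2 (2.44), where it was under 1 FPKM. TRIM16L was at 1.16 in Huh7 and −0.38 in the libraries labelled HepG2 (1.53).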

How the results depend on the processing

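Each group has 1 library, so no replicate could be left out. Of 150 recomputed log2 ratios of the 10 genes, 5 changed sign, all of them ratios within 0.06 of 0 as reported. The 150 include those under the altered filters, which choose genes and do not enter a ratio. Only the altered pseudocount and scaling could change one. With size factors 1 gene in place of 2 was at least 2-fold higher in treated cells labelled HepG2, as MAFF came to a log2 ratio of 0.96. After rescaling to the same total, 1 in place of 2 was at least 2-fold higher in untreated Huh7 than in untreated cells labelled HepG2, as NQO1 came to 0.94. That count was 3 with a pseudocount of 0.1 and with size factors. MAFF, at 0.93 as reported, came to 1.02 and 1.03 there. Size factors moved the median log2 ratio of all Huh7 genes to −0.002, against 0.102 as deposited, and the share of higher among genes past 2-fold to 49.7%, against 64.0%. With a pseudocount of 0.1 the genes at least 2-fold higher numbered 1331 in treated cells labelled HepG2, against 794, and 970 in treated Huh7, against 464. The limma count of the 10 genes was 0 under every alternative run. Without the replicate block (no pairing by line) 0 of all 13030 genes were called. At a limma unadjusted p under 0.05, 62 of the 13030 were higher and 50 lower. At that level 1 of the 10 was higher, against 3 with the block.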
